A study of Sus scrofa with 6 samples.

Results

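The 10 genes described here act in cell death by the mitochondrial route: the BCL2 family members BCL2L1, MCL1 and BNIP3L, the caspases CASP2 and CASP6, the mitochondrial factors CYCS, DIABLO, AIFM1 and ENDOG, and the inhibitor of apoptosis family member BIRC5. Every probe set of the Affymetrix Porcine Genome Array whose platform annotation gave a single symbol equal to one of these was taken, whatever its signal. This found 16 probe sets, 2 for each of 6 genes (BCL2L1, BNIP3L, CASP2, CASP6, DIABLO and AIFM1) and 1 for each of the other 4, out of 23999 probe sets and 6765 singly named genes. A filter on low signals left 15 of the 16 for testing. The DIABLO probe set Ssc.5098.2.S1_a_at was too dim and is given as values.

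The 6 samples were pig RNA, each on 1 array. Embryos made by nuclear transfer, in which the nucleus of a donor cell is moved into an enucleated oocyte, were collected 28 h later as pools of 23 to 26, with the 2-cell stage given as their stage. They had been injected with an antibody against the protein DJ-1 (anti-DJ1, n = 2), injected with IgG (n = 2) or not injected (n = 1). The donor cells themselves (n = 1) were cultured fibroblasts from an adult Meishan pig, and all recipient oocytes came from a slaughterhouse. The study had 2 trials: every group has 1 array in trial 1, and trial 2 repeated anti-DJ1 and IgG on separately prepared samples. The trial was taken as the replicate number in an array's title, also for the single non-injected and donor cell arrays. Neither the antibody's dose nor the time of injection is stated in the labels. All embryos carried donor nuclei of the same cells, and a pool gives the mean of its embryos.

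Many apoptotic signals meet at the outer mitochondrial membrane. Anti-apoptotic BCL2 family proteins such as BCL-XL, the product of BCL2L1, and MCL-1 keep that membrane intact. When it is permeabilised, proteins held between the membranes escape: cytochrome c (CYCS) helps to activate the caspase cascade, SMAC (DIABLO) relieves inhibitors of caspases, and apoptosis inducing factor (AIFM1) and endonuclease G (ENDOG) can act on nuclear DNA. Oocytes store transcripts for the first divisions, and the early embryo relies on this maternal store until its own genome is transcribed. All these proteins are regulated after transcription too, so a transcript level is not a measure of cell death.

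Signals are deposited MAS5 intensities on a linear scale, and differences are log2(signal + 4.60) values fitted by limma on all 6 arrays with trial as a block, with the standard error of the fit (SE). An adjusted p is Benjamini-Hochberg adjusted over all 14399 probe sets tested, two-sided, with a threshold of 0.05, and "rose", "fell", "higher" and "lower" with such a p refer to it. The fit had 1 residual degree of freedom, and the single non-injected and donor cell arrays were assumed to vary like the replicated ones. Every fit below that left out 1 array also left out the trial block, so a call lost there cannot be laid to the array alone. Background on an array was marked by the brightest of its Tag control probe sets, which was between 21.4 and 47.0. Of the probe sets, between 55.8% and 71.0% lay above it. All 8 oocyte markers with a probe set were above background on each embryo array and 2 of 8 on the donor cell array, with summed signals of 69593 to 93718 in embryos and 168 in donor cells. The 10 fibroblast markers summed to 1644 to 2065 in embryos and 67652 in donor cells. Cumulus and granulosa markers summed to 1613 to 2171 and 972, epithelial markers to 7665 to 9217 and 16003, and blood and endothelial markers to 1427 to 2386 and 1103. The part of other cell types in the results was not tested.

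**Figure D1:**
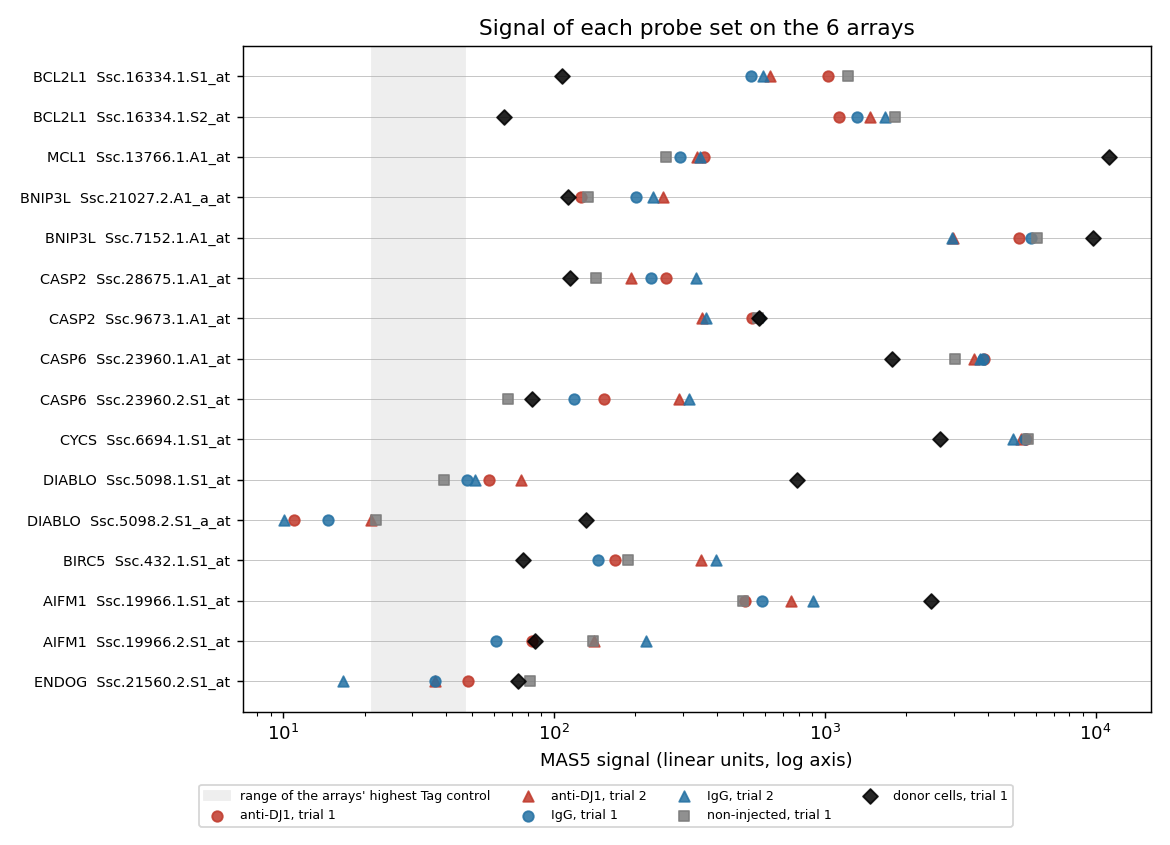
MAS5 signal (log axis) of each of the 16 probe sets on each of the 6 arrays, 1 point an array, with the grey band marking the range of the arrays' highest Tag control, 21.4 to 47.0. The donor cell point lies far to the left of the embryo points for both BCL2L1 probe sets and far to the right for MCL1 and DIABLO, while the 5 embryo points of CYCS lie close together.

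Between embryos and donor cells the anti-apoptotic BCL2 family transcripts went in opposite directions. Embryos had more BCL2L1 signal, by 19.9-fold and 7.85-fold on its 2 probe sets, and less MCL1 signal, by 36.7-fold. DIABLO was 15.2-fold lower in embryos and AIFM1, on its brighter probe set, 4.63-fold lower, whereas CYCS and CASP6 were 2.09-fold and 2.0-fold higher in the same comparison. In all, 10 of 15 tested probe sets passed the threshold, 6 higher and 4 lower in embryos, where 72.9% of all tested probe sets did so. The median difference over the 15 was 0.36 (log2), beside -0.02 over all probe sets tested. On the linear scale the donor cell signal lay above the range of the 5 embryo signals for 5 of the 16 probe sets and below it for 7, and it lay outside that range for 70.5% of all probe sets. As the donor cell array was placed in trial 1 by its replicate number, the fit sets this comparison at the level of trial 1. In pooled RNA, fewer cells of a type and less RNA per cell cannot be told apart.

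The level at which arrays are scaled to each other bears on this comparison. Setting each array's 75th percentile to a common value moved the median difference of all tested probe sets from -0.02 to 0.59, and quantile normalization moved it to 0.42. The share of calls that were higher in embryos went from 50.0% to 63.2% and 59.7%. Under these scalings the small negative differences of CASP2 (Ssc.9673.1.A1_at) and ENDOG turned positive, and BNIP3L (Ssc.21027.2.A1_a_at) and CASP6 (Ssc.23960.2.S1_at) kept their direction and passed the threshold, as given below.

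**Figure D2:**
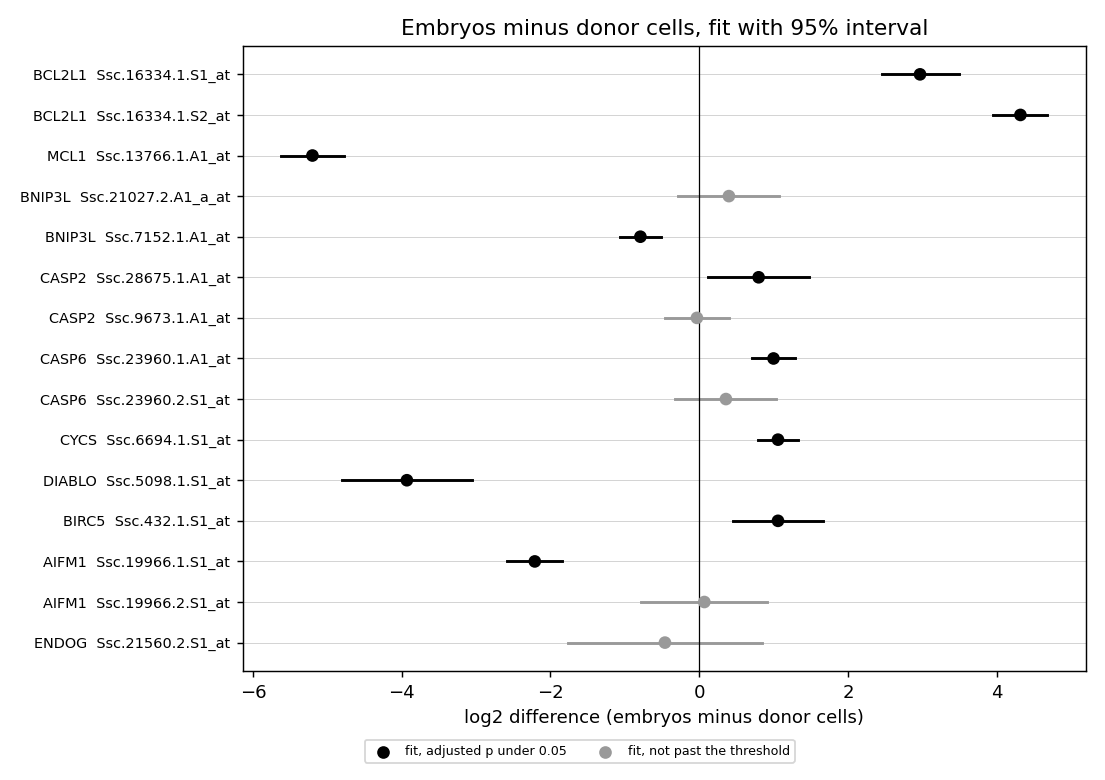
Fitted log2 difference, embryos minus donor cells, of the 15 tested probe sets, with 95% confidence intervals and black points for an adjusted p under 0.05. BCL2L1 lies to the right at 4.32 and 2.97, and MCL1 (-5.20), DIABLO (-3.93) and AIFM1 (-2.21) lie to the left, with the other probe sets within 1.06 of 0.

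BCL2L1 was low in donor cells on both of its probe sets. The BCL2L1 probe set Ssc.16334.1.S2_at read 1127 and 1463 in anti-DJ1 embryos of trials 1 and 2, 1313 and 1667 in IgG embryos, 1812 without injection and 65.4 in donor cells. Its dimmest embryo array was 17.2 times the donor cell array, and the difference was 4.32 ± 0.17 (SE; adjusted p = 2.55e-10, limma). The other BCL2L1 probe set, Ssc.16334.1.S1_at, read 1024, 629, 535, 590, 1213 and 107 in the same order, a difference of 2.97 ± 0.24 (adjusted p = 1.83e-07). Both probe sets were far brighter on every embryo array than on the donor cell array, but they did not keep a constant ratio to each other: the brighter over the dimmer ran from 1.10 to 2.82 among embryo arrays and was 0.610 in donor cells. What sequence each of them reads is not analysed here.

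MCL1, whose protein is short-lived, read 359 and 337 in anti-DJ1 embryos, 292 and 347 in IgG embryos, 259 without injection and 11220 in donor cells on Ssc.13766.1.A1_at. The donor cell array was 31.2 times the brightest embryo array, and the 5 embryo arrays lay within 1.39-fold of each other. The fitted difference was -5.20 ± 0.19 (adjusted p = 1.84e-10, limma). The calls for MCL1 and for both BCL2L1 probe sets were kept under each of the 8 alternative settings and each of the 4 fits that left out 1 array, with differences from -5.24 to -4.57 for MCL1 over the settings.

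BNIP3L, which encodes NIX, a BH3-type protein of the outer mitochondrial membrane that serves as a receptor in mitophagy, gave a less settled picture. Ssc.7152.1.A1_at read 5199 and 2967 in anti-DJ1 embryos, 5794 and 2960 in IgG embryos, 6077 without injection and 9795 in donor cells. The donor cell array was the brightest and the 2 arrays of trial 2 the dimmest. Its difference between embryos and donor cells, -0.79 ± 0.13 (adjusted p = 0.000103), shrank to -0.15 (adjusted p = 0.3) when the 75th percentiles were set equal. It passed no more when the trial block was left out (-1.08, adjusted p = 0.115), and passed in 2 of the 4 fits that left out an array. The second probe set, Ssc.21027.2.A1_a_at, read 126, 253, 201, 232 and 134 in the embryo arrays and 113 in donor cells, a difference of 0.40 ± 0.31 (adjusted p = 0.266) in the other direction. That difference was past the threshold under both other scalings, at 1.01 and 1.08.

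For the caspases CASP2 and CASP6, the fitted differences between embryos and donor cells ran from -0.03 to 1.0 over their 4 probe sets. CASP6, an executioner caspase that cleaves nuclear lamins, read 3854 and 3540 in anti-DJ1 embryos, 3822 and 3743 in IgG embryos, 3023 without injection and 1771 in donor cells on Ssc.23960.1.A1_at. Every embryo array was above the donor cell array, by at least 1.71-fold, and the difference was 1.0 ± 0.13 (adjusted p = 1.95e-05, limma). It was past the threshold under the 8 alternative settings but in none of the 4 fits that left out an array, where adjusted p ran from 0.0572 to 0.0913 with differences of 0.95 to 0.99. The second CASP6 probe set, Ssc.23960.2.S1_at, was dimmer and more spread, at 153, 289, 119, 316 and 67.7 on the embryo arrays and 82.7 in donor cells, with a difference of 0.36 ± 0.31 (adjusted p = 0.318). Both other scalings brought it past the threshold, at 0.96 and 0.94.

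CASP2, an initiator caspase linked to the death of oocytes, read 538 and 351 in anti-DJ1 embryos, 572 and 365 in IgG embryos, 565 without injection and 570 in donor cells on Ssc.9673.1.A1_at. The 4 arrays of trial 1 lay together and the 2 arrays of trial 2 lay below them. The difference from donor cells was -0.03 ± 0.20 (adjusted p = 0.897) as deposited, 0.60 with equal 75th percentiles (adjusted p = 0.0131) and 0.47 after quantile normalization (adjusted p = 0.0436). Ssc.28675.1.A1_at, the second CASP2 probe set, read 260, 193, 228, 336 and 143 on the embryo arrays and 115 in donor cells. Its difference of 0.80 ± 0.31 (adjusted p = 0.0343) did not pass without the low-signal filter (adjusted p = 0.053), without the mean-variance trend (0.125), without the block (0.156) or in any of the 4 fits that left out an array (0.152 to 0.3).

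Of the proteins that leave the mitochondria, CYCS had the most even level over the embryo arrays. It read 5541 and 5304 in anti-DJ1 embryos, 5495 and 4934 in IgG embryos, 5625 without injection and 2655 in donor cells on Ssc.6694.1.S1_at, so that the embryo arrays lay within 1.14-fold of each other. All 5 were above the donor cell array, with a difference of 1.06 ± 0.12 (adjusted p = 6.59e-06, limma). Without any 1 of the 4 replicated arrays the difference was 1.0 to 1.05 and adjusted p 0.0507 to 0.0663, short of the threshold, while the 8 other settings kept the call with 0.86 to 1.70.

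DIABLO was close to background in embryos. Ssc.5098.1.S1_at read 57.6 and 75.3 in anti-DJ1 embryos, 47.9 and 51.3 in IgG embryos, 39.3 without injection and 791 in donor cells. Of the 5 embryo arrays 4 were above their highest Tag control, the non-injected one was not, and the donor cell array was 10.5 times the brightest of them. The difference was -3.93 ± 0.40 (adjusted p = 1.97e-06, limma), and the call was kept in all 4 fits that left out an array and in the 7 alternative settings that tested this probe set. The second probe set, Ssc.5098.2.S1_a_at, read 11.0, 21.1, 14.6, 10.1 and 22.1 on the embryo arrays and 131 in donor cells. It was below the highest Tag control on each of the 5 embryo arrays, so that the donor cell array was at least 3.65-fold higher, taken against the geometric mean of those Tag signals.

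AIFM1 encodes a flavoprotein of the space between the mitochondrial membranes. Ssc.19966.1.S1_at read 507 and 753 in anti-DJ1 embryos, 588 and 904 in IgG embryos, 497 without injection and 2466 in donor cells. The donor cell array was 2.73 times the brightest embryo array, and the difference, -2.21 ± 0.17 (adjusted p = 1.47e-07, limma), was called under every alternative setting and in every fit that left out an array. Ssc.19966.2.S1_at, dimmer, did not show it: its signals of 83.1, 141, 60.9, 218 and 140 on the embryo arrays enclosed the donor cell signal of 85.3, and the difference was 0.07 ± 0.39 (adjusted p = 0.889).

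ENDOG, a nuclease of the mitochondria, lay near background. It read 48.3 and 36.4 in anti-DJ1 embryos, 36.3 and 16.7 in IgG embryos, 81.7 without injection and 73.8 in donor cells on Ssc.21560.2.S1_at, above the highest Tag control on 3 of the 5 embryo arrays and on the donor cell array. The difference from donor cells was -0.46 ± 0.60 (adjusted p = 0.512), with a 95% interval from -1.76 to 0.85, and became 0.13 and 0.06 under the other scalings.

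BIRC5 encodes survivin, which serves both as an inhibitor of apoptosis and as a subunit of the chromosomal passenger complex of dividing cells. Ssc.432.1.S1_at read 168 and 350 in anti-DJ1 embryos, 145 and 396 in IgG embryos, 187 without injection and 77.2 in donor cells. All 5 embryo arrays were above the donor cell array and the 2 arrays of trial 2 were the highest. The difference between embryos and donor cells, 1.06 ± 0.28 (adjusted p = 0.00404, limma), was 1.47 with an adjusted p of 0.121 without the block, and was past the threshold in 2 of the 4 fits that left out an array.

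The trials differed for several of these genes. With the group held constant, BIRC5 was 2.35-fold higher in trial 2, CASP6 on its dimmer probe set 2.20-fold, AIFM1 on its 2 probe sets 1.51-fold and 2.38-fold, while BNIP3L on its brighter probe set was 1.85-fold lower and CASP2 on its brighter probe set 1.54-fold lower. That is 6 of 15 probe sets called, 4 higher and 2 lower in trial 2, where 32.3% of all tested probe sets were called, with a median of 0.08 over the members and 0.14 over all. The 2 arrays of trial 1 and the 2 of trial 2 did not overlap for 10 of the 16 member probe sets, as for 56.1% of all probe sets. None of the 6 calls was kept without the mean-variance trend of the moderated test, where 0 of 14399 probe sets passed and the 6 had adjusted p from 0.0822 to 0.116.

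The BIRC5 signal rose between trials by 1.04 in anti-DJ1 embryos and by 1.42 in IgG embryos, and the fitted difference was 1.23 ± 0.24 (adjusted p = 0.00228, limma). BNIP3L on Ssc.7152.1.A1_at changed by -0.81 and -0.97, with a fitted difference of -0.89 ± 0.11 (adjusted p = 0.000131), and CASP2 on Ssc.9673.1.A1_at by -0.61 and -0.64, fitted at -0.63 ± 0.17 (adjusted p = 0.0144). Each of these differences had the same direction in both treatments. CASP6 on Ssc.23960.2.S1_at rose by 0.90 and 1.38, fitted at 1.14 ± 0.27 (adjusted p = 0.00726), while its brighter probe set Ssc.23960.1.A1_at gave -0.12 and -0.03, fitted at -0.08 ± 0.11 (adjusted p = 0.653).

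For AIFM1, Ssc.19966.1.S1_at rose by 0.57 and 0.62 between trials, fitted at 0.59 ± 0.15 (adjusted p = 0.00982, limma), and Ssc.19966.2.S1_at by 0.73 and 1.76, fitted at 1.25 ± 0.33 (adjusted p = 0.0136). The call of the brighter one was lost with equal 75th percentiles (0.35, adjusted p = 0.0914) and after quantile normalization (0.39, adjusted p = 0.0592). Neither BCL2L1 probe set passed: they were fitted at -0.28 ± 0.20 and 0.36 ± 0.14, with adjusted p of 0.328 and 0.0789. MCL1, CYCS, DIABLO and ENDOG were fitted at 0.08 ± 0.17, -0.11 ± 0.11, 0.23 ± 0.35 and -0.65 ± 0.52, none past the threshold. Some of these passed under 1 alternative each: with equal 75th percentiles CYCS was at -0.36 (adjusted p = 0.0216) and CASP6 on Ssc.23960.1.A1_at at -0.32 (adjusted p = 0.0449), and BCL2L1 on Ssc.16334.1.S2_at passed with the upper 40% of probe sets (adjusted p = 0.0464).

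A measure of RNA integrity or of labelling length moved with the trials. The ratio of the 3′ to the 5′ control probe set of the elongation factor EF1A was 24.2 and 23.9 on the injected arrays of trial 1, 30.0 on the non-injected array, 8.20 and 9.34 on the arrays of trial 2 and 4.23 in donor cells. The same ratio for GAPDH did not follow the trials: it was 17.6 (anti-DJ1) and 7.46 (IgG) in trial 1, 6.65 and 16.1 in trial 2, 8.49 on the non-injected array and 21.1, the highest, in donor cells. That of actin was 265 and 258 in trial 1, 45.0 and 68.4 in trial 2, 665, the highest, on the non-injected array and 141 in donor cells. The part of these ratios in the differences between trials, between injected and non-injected embryos, and between embryos and donor cells, was not tested. Scaling mattered as well: of the probe sets called between trials, 58.7% were higher in trial 2 as deposited, 47.2% after quantile normalization and 34.1% with equal 75th percentiles, with a median over all probe sets of 0.14, -0.00 and -0.09.

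**Figure D3:**
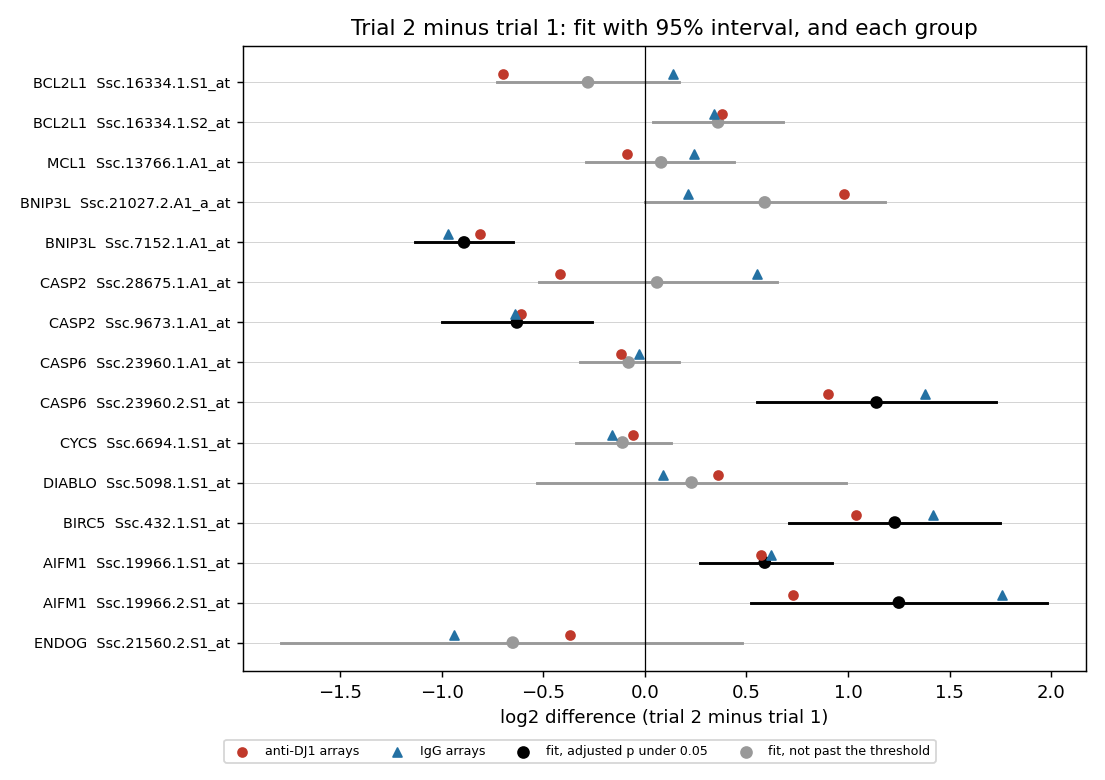
Log2 difference, trial 2 minus trial 1, of the 15 tested probe sets: the fit with its 95% confidence interval (black where adjusted p was under 0.05), and above it the difference among anti-DJ1 arrays (circle) and among IgG arrays (triangle). The circle and the triangle lie on the same side of 0 for the 6 called probe sets, from -0.89 for BNIP3L to 1.25 for AIFM1. They lie on opposite sides for BCL2L1 Ssc.16334.1.S1_at, CASP2 Ssc.28675.1.A1_at and MCL1.

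The question the design puts first is whether blocking DJ-1, a protein known for its role in the response to oxidative stress, changes transcripts of nuclear transfer embryos relative to IgG. None of the 15 tested member probe sets passed the threshold between anti-DJ1 and IgG embryos, with adjusted p from 0.852 to 0.995 (limma). No probe set on the array did (0.0% of 14399, with 839 at an unadjusted p under 0.05 and a lowest adjusted p of 0.0872), and 1 of the 15 members had an unadjusted p under 0.05. The median difference of the members was -0.03, beside -0.01 over all. A stricter filter that kept the upper 40% gave 43 of 9600 probe sets past the threshold, and 0 of them were members.

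The 95% interval of the anti-DJ1 minus IgG difference lay within 2-fold to either side for every tested member other than ENDOG and DIABLO. CYCS differed by 0.06 ± 0.11 (-0.18 to 0.29). CASP6 on Ssc.23960.1.A1_at differed by -0.03 ± 0.11 (-0.28 to 0.21) and BNIP3L on Ssc.7152.1.A1_at by -0.08 ± 0.11 (-0.31 to 0.16). These 3 were the narrowest intervals, and MCL1 differed by 0.13 ± 0.17 (-0.24 to 0.49).

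The intervals of ENDOG and DIABLO were wider. ENDOG differed by 0.66 ± 0.52 (-0.47 to 1.79) and DIABLO on Ssc.5098.1.S1_at by 0.38 ± 0.35 (-0.38 to 1.14). In both, each anti-DJ1 array was above each IgG array, at 36.4 and 48.3 against 16.7 and 36.3 for ENDOG and at 57.6 and 75.3 against 47.9 and 51.3 for DIABLO, with trial differences of 0.37 and 0.94 and of 0.24 and 0.51. The margin for ENDOG, 36.4 against 36.3, was far below the spread within either group, and both ENDOG and DIABLO lay near background.

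The smallest unadjusted p among the members, 0.0284, was that of BCL2L1 on Ssc.16334.1.S1_at. Its anti-DJ1 arrays read 1024 and 629 and its IgG arrays 535 and 590, a difference of 0.93 in trial 1 and 0.09 in trial 2, fitted at 0.51 ± 0.20 (adjusted p = 0.852, limma; 0.354 to 1.0 over the alternative settings). The high array was that of trial 1. The other BCL2L1 probe set, Ssc.16334.1.S2_at, was lower in anti-DJ1 embryos in both trials, by 0.22 and 0.19, fitted at -0.20 ± 0.14 (adjusted p = 0.927). The 2 BCL2L1 probe sets thus went in opposite directions in each trial.

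The 2 treatments did not overlap for 3 of the 16 member probe sets, BCL2L1 Ssc.16334.1.S1_at, ENDOG and DIABLO Ssc.5098.1.S1_at, as for 22.0% of all probe sets. The difference had the same sign in both trials for 7 of the 16, as for 50.6% of all. AIFM1 on Ssc.19966.1.S1_at was lower in anti-DJ1 embryos by 0.21 and 0.26, fitted at -0.24 ± 0.15 (adjusted p = 0.92), without the groups being apart, since the trial difference was larger. CASP2 on Ssc.28675.1.A1_at and BIRC5 changed sign between trials, at 0.19 and -0.79 and at 0.21 and -0.18.

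**Figure D4:**
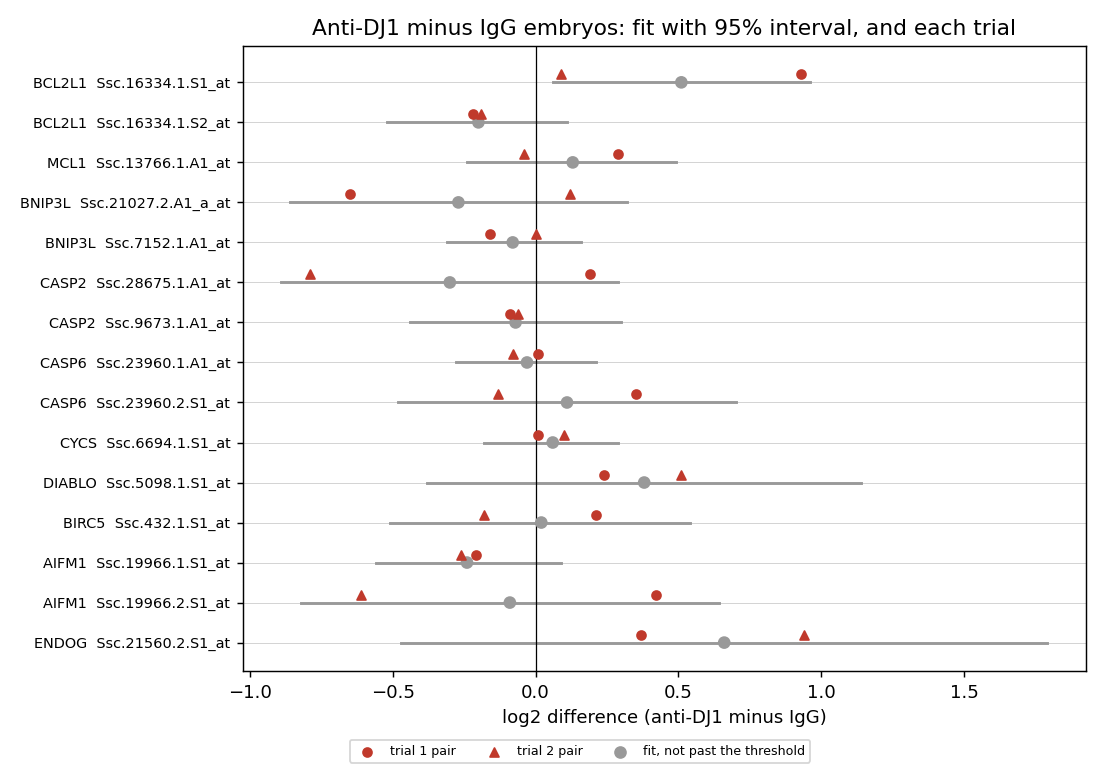
Log2 difference, anti-DJ1 minus IgG embryos, of the 15 tested probe sets: the fit with its 95% confidence interval, and above it the difference in trial 1 (circle) and in trial 2 (triangle). All fits are grey, since none passed the threshold, and the fitted values run from -0.30 for CASP2 to 0.66 for ENDOG.

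Injected embryos could be set against a single non-injected array only. That array also had the highest 3′ to 5′ ratios of EF1A (30.0) and actin (665). Its share of probe sets above background, 55.8%, was the lowest. The part of these in the comparison was not tested. Both injected groups were compared with that same array, and the 2 comparisons therefore share it. None of the 15 member probe sets passed in either (5 and 3 had an unadjusted p under 0.05 in limma), where 1.29% of all tested probe sets passed for IgG against non-injected embryos (134 higher, 52 lower) and 1.94% for anti-DJ1 against non-injected embryos (184 higher, 95 lower). Without the trial block, 0 of 14399 passed in either. On the linear scale the non-injected array lay outside the range of the 4 injected arrays for 12 of the 16 member probe sets, where 47.3% of all probe sets did so. Of those 4 arrays 2 were of trial 2, for which no non-injected array was analysed here.

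BCL2L1 was highest in the non-injected embryos on both probe sets, at 1213 beside 535 to 1024 and at 1812 beside 1127 to 1667. On Ssc.16334.1.S1_at the difference was -0.96 ± 0.27 for IgG (adjusted p = 0.0974, limma) and -0.45 ± 0.27 for anti-DJ1 embryos. The IgG difference passed the threshold with a pseudocount at the 25th percentile of signals (-0.95, adjusted p = 0.0453) and with the upper 40% of probe sets (adjusted p = 0.00704). On Ssc.16334.1.S2_at the differences were -0.47 ± 0.19 (adjusted p = 0.232) and -0.67 ± 0.19 (adjusted p = 0.0894), and that of anti-DJ1 embryos passed with the upper 40% of probe sets (adjusted p = 0.0236).

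CASP6 was lowest in the non-injected embryos among embryo arrays on both probe sets. On Ssc.23960.2.S1_at the differences were 0.89 ± 0.36 for IgG and 1.01 ± 0.36 for anti-DJ1 embryos (adjusted p = 0.159 for the latter, limma), and on Ssc.23960.1.A1_at 0.36 ± 0.15 and 0.33 ± 0.15. CASP2 on Ssc.28675.1.A1_at was 143 in non-injected embryos beside 193 to 336, with differences of 0.89 ± 0.36 and 0.59 ± 0.36. ENDOG was 81.7 beside 16.7 to 48.3, with differences of -1.22 ± 0.69 and -0.56 ± 0.69, and AIFM1 on Ssc.19966.2.S1_at had -0.89 ± 0.44 and -0.98 ± 0.44. None of these passed the threshold.

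A wider list of 81 other genes of cell death, chosen by function, had a probe set for 43 of them, of which 29 were bright enough to test by their brightest probe set. Between embryos and donor cells 24 of the 29 passed, 4 higher and 20 lower in embryos, with a median of -1.12, where 72.9% of all tested probe sets passed, 5248 higher and 5253 lower, with a median of -0.02. With equal 75th percentiles 5 were higher and 15 lower, and without the block 0 and 12. In the fits that left out 1 array, between 0 and 2 were higher and between 8 and 13 lower. The largest falls were those of the death receptor TNFRSF1A (-3.93 ± 0.24, from 3366 in donor cells to between 147 and 276), the endoplasmic reticulum membrane protein TMBIM6, also known as BAX inhibitor 1 (-3.78 ± 0.16, from 10044 to between 521 and 966), the mitochondrial channel VDAC3 (-2.72 ± 0.17) and DAP (-2.55 ± 0.22).

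The 4 genes of that list that were higher in embryos were DFFA, the inhibitor of the caspase-activated DNase, at 1.13 ± 0.23, DAXX at 0.97 ± 0.31, the autophagy regulator BECN1 at 0.49 ± 0.14 and VDAC2 at 0.45 ± 0.16. The probe sets of DFFA and VDAC2 disagreed: the 2 further ones of DFFA were at 1.99 (adjusted p = 0.0413, limma) and -1.12 (adjusted p = 0.03), and those of VDAC2 at -5.10, -0.85 and 0.00, the first pair of them past the threshold. BECN1 kept its direction under both other scalings, at 1.13 and 0.38. It did not pass without the mean-variance trend (adjusted p = 0.111, limma) or without the block (adjusted p = 0.157). DAXX did not pass without the trend (adjusted p = 0.0662, limma) or without the block (adjusted p = 0.143). DFFA did not pass without the block (adjusted p = 0.0645, limma). The second probe set of BECN1 was at 0.15 (adjusted p = 0.445). Pro-apoptotic BAX, near background in embryos, read 7.10 to 70.3 on the embryo arrays and 109 in donor cells. On embryo arrays alone BAX did not pass the low-signal filter. It was therefore tested, and counted among the lower genes, only through its donor cell signal. Its difference of -2.08 ± 0.63 (adjusted p = 0.0104, limma) did not pass after quantile normalization (-1.54, adjusted p = 0.0571), without the block (-1.46, adjusted p = 0.278), or without the trial 1 array of IgG (-1.06, adjusted p = 0.202) or of anti-DJ1 embryos (-1.24, adjusted p = 0.21). Another 14 genes were too dim to test. Of these, named like BAX after their values were seen, CFLAR, an inhibitor of caspase-8, read 1.14 to 15.8 in embryos and 852 in donor cells, FADD, the adaptor of death receptors, 5.11 to 61.8 and 418, and the BH3-only protein BID 3.42 to 29.3 and 320. Not all of the 14 were brightest in donor cells. FASLG read 4.84 to 21.8 in embryos and 2.62 in donor cells, CASP1 4.6 to 30.9 and 5.81, and BCL2L11 19.7 to 59.3 and 31.7. The donor cell array was the brightest for the rest.

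**Figure D5:**
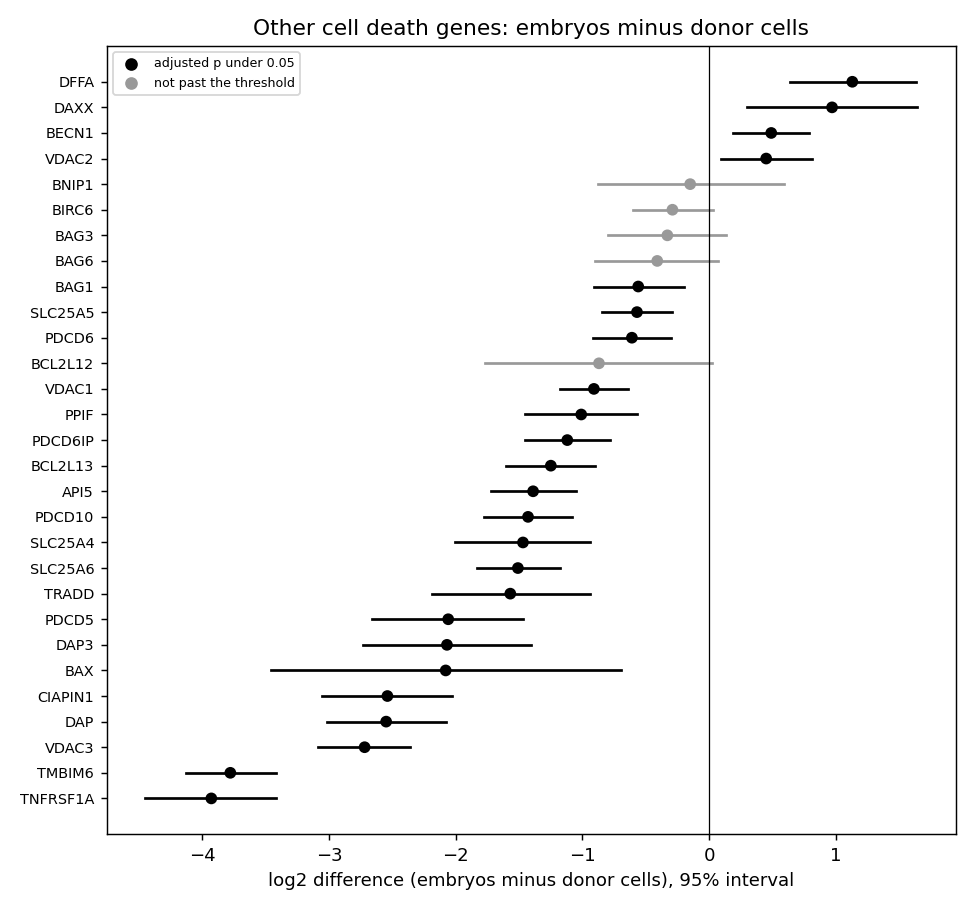
Fitted log2 difference, embryos minus donor cells, of the 29 other cell death genes tested, 1 probe set a gene, with 95% confidence intervals and black points for an adjusted p under 0.05. From DFFA at 1.13 the values run down to TNFRSF1A at -3.93, with 20 called below 0 and 4 above.

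Between trials 17 of the 29 passed, 16 higher and 1 lower in trial 2, with a median of 0.57, where 32.3% of all tested probe sets passed, 2730 higher and 1923 lower, with a median of 0.14. The list gave 12 and 1 after quantile normalization, 10 and 1 with equal 75th percentiles, and none without the mean-variance trend. The largest difference was that of SLC25A6, an adenine nucleotide translocator, which read 628 and 630 on the injected arrays of trial 1 and 3104 and 3154 on those of trial 2 (2.31 ± 0.13, adjusted p = 3.8e-06, limma). The anti-apoptotic CIAPIN1 (1.30 ± 0.20) and DAXX (1.15 ± 0.26) were also higher. BAX read 25.9 and 7.10 on the injected arrays of trial 1, both below their highest Tag control, and 70.3 and 58.2 on those of trial 2, and its call was lost without the filter (adjusted p = 0.0519). TMBIM6 fell by 0.55 ± 0.14, though another of its probe sets was 1.13 higher. SLC25A4, SLC25A5 and SLC25A6 are close paralogs, and which of them each probe set reads is uncertain.

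In anti-DJ1 against IgG embryos 0 of the 29 passed in limma, 1 had an unadjusted p under 0.05, and the median was -0.04. The 4 smallest unadjusted p were those of TNFRSF1A (-0.63 ± 0.20, adjusted p = 0.815, limma), TMBIM6 (-0.27), the cyclophilin PPIF (-0.32) and DFFA (0.34). Further probe sets of TMBIM6 were at 0.48 (unadjusted p = 0.0107, adjusted p = 0.815, limma), 0.15 and -0.09. Those of DFFA were at -0.50 and -1.17, so the probe sets of both genes disagreed. Against the non-injected array, SLC25A6 was lower in IgG embryos (-0.89 ± 0.17, adjusted p = 0.0336) and in anti-DJ1 embryos (-0.90, adjusted p = 0.0278), values that turned to 0.26 and 0.25 without the block. Neither SLC25A6 call was kept without the mean-variance trend (adjusted p = 0.341 and 0.325), nor that of IgG embryos without the filter (0.0613). TMBIM6 was higher in IgG embryos (0.86 ± 0.18, adjusted p = 0.0492), and was not past the threshold after quantile normalization (adjusted p = 0.0522), with a pseudocount at the 1st percentile (0.056), without the filter (0.0804), without the mean-variance trend (0.354) or without the block (0.994).

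The genes whose pattern over the 6 arrays was most like that of each member were found among 5218 tested genes as the smallest root mean square difference of centred log2 values. CYCS was nearest to SLC38A9 (0.0343) and RBM8A (0.0535), and CASP6 to ZNF7 (0.0480) and ZMYM2 (0.0578). CASP2 was nearest to DCAF13 (0.0561), BNIP3L to HNRNPR (0.0720), BIRC5 to BCL7C (0.0777) and AAAS (0.0779), and AIFM1 to TMEM214 (0.0785). BCL2L1 on Ssc.16334.1.S2_at was nearest to RALA (0.111), which read 5773 to 7915 in embryos and 320 in donor cells. DIABLO was nearest to DPY19L1 (0.116), and MCL1 to ARF2 (0.157) and the matrix protein FN1 (0.187), which read 520 to 614 in embryos and 24455 in donor cells. The nearest gene to ENDOG, TMEM222, was at 0.225. The 6 arrays share their scaling and fall into 2 trials, and these likenesses are descriptions with no test.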

How the data were processed

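RNA of 6 samples was hybridised, 1 array each. Probe set intensities were deposited on a linear scale and come from MAS5, per the submitters' processing notes. Neither its version nor its scaling target is given there, but every array's trimmed mean was 499.8 or 499.9. Per the labels' protocols, 50 ng of RNA was amplified in a two-cycle labelling. The table held 24123 probe sets, and 124 controls were left out. A single gene symbol was given by the platform annotation, which can be old, for 10069 probe sets, several for 198 and none for 13732.

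Intensities were set to log2(signal + 4.60), the 10th percentile of signals, a scale that understates changes of dim probe sets. The upper 60% by mean (14399, above 39.6) were tested with limma 3.58.1 (R 4.3.3; lmFit and eBayes with trend) on group and trial, two-sided, with Benjamini-Hochberg adjustment over all of them in each of 5 comparisons. The 1 residual degree of freedom was joined by 10.7 from moderation, which so few arrays fix poorly, and when tested on simulated data the share of false calls could exceed the threshold. Per the design text, trial 2 used other samples and each trial had its own IgG control, so trial was a block. Deviations from group means of same-trial anti-DJ1 and IgG arrays correlated at r = 0.589 over 14399 probe sets, which are not independent. Precision is limited by the number of arrays. The p-values rest on how far the anti-DJ1 minus IgG difference varied between the trials, moderated over probe sets. The shift between trials is taken out of that spread, and the single non-injected and donor cell arrays add nothing to it.

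The members and lists were chosen with earlier results of these data known. All member probe sets are described. Of the wider list, each gene's brightest probe set was used, and per comparison the text names up to 4 genes past the threshold in each direction by size, otherwise the 4 with the smallest unadjusted p. Alternatives were other pseudocounts, filters and scalings, no trend, no block, embryo arrays only, and leaving out each replicated array together with the block. Sequences and genome positions of the probe sets are not analysed here.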

Additional observations from a re-analysis of the deposited data

How the results depend on the processing

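Among the 5 comparisons, the calls for MCL1, both BCL2L1 probe sets, DIABLO Ssc.5098.1.S1_at and AIFM1 Ssc.19966.1.S1_at between embryos and donor cells were kept under every alternative that tested them. The 5 fits without the block, 4 of which also left out an array, hold the difference between trials in their spread. Where the groups compared do not hold the same trials, part of that difference is in the fitted value too. Few arrays, and signals near background for DIABLO and ENDOG, limit what the tests detect.

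Leaving out the trial as a replicate block gave 0 of 14399 probe sets for IgG and 0 for anti-DJ1 against non-injected embryos, in place of 186 and 279, and kept 7 of 10 member calls between embryos and donor cells. Signs turned without the block for BIRC5 (0.35 for IgG and 0.37 for anti-DJ1 against non-injected), CASP2 Ssc.9673.1.A1_at (-0.30 for IgG) and CYCS (-0.053 for anti-DJ1). The pairing changed no member call in the 3 comparisons among embryos.

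For anti-DJ1 against IgG, the count over all probe sets went from 0 to 1 with a pseudocount at the 25th percentile, 1 after quantile normalization, 1 with equal 75th percentiles, 2 with embryo arrays only and 43 with the upper 40% of probe sets. For IgG against non-injected embryos the 186 became 438, with a pseudocount at the 25th percentile, 48 with no filter, 726 with the upper 40%, 312 with equal 75th percentiles, 341 with embryo arrays only and 0 with no mean-variance trend. For anti-DJ1 against non-injected embryos the 279 became 588, 71, 878, 470 and 0 under the same alternatives other than embryo arrays only. Member calls went from 0 to 1 for IgG against non-injected embryos with that pseudocount and with the upper 40%, and to 1 for anti-DJ1 against non-injected with the upper 40%. Between trials, 0 member and 0 of all probe sets passed with no trend. The cause was not tested.

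Under the other scalings (quantile, then equal 75th percentiles), signs turned for CASP2 Ssc.9673.1.A1_at (0.47 and 0.60 against donor cells; -0.031 and -0.012 for IgG against non-injected), ENDOG (0.059 and 0.13 against donor cells), AIFM1 Ssc.19966.1.S1_at (-0.031 and -0.0025 for anti-DJ1 against non-injected) and, between trials, MCL1 (-0.16 and -0.17) and CASP2 Ssc.28675.1.A1_at (-0.19 and -0.18). Under a single one they turned for CYCS (0.054 between trials, quantile; -0.018 for anti-DJ1 against non-injected, 75th percentiles) and DIABLO (-0.002 between trials, 75th percentiles).

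Leaving out 1 array, the counts were 0 to 0 for IgG and 0 to 1 for anti-DJ1 against non-injected embryos, and 5 to 7 member calls against donor cells, with 5 without the trial 2 array of either anti-DJ1 or IgG. These fits had no trial block and left a group with 1 trial, so their values mix the group difference with that between trials. They do not show how stable the group difference is. Signs turned for anti-DJ1 against IgG in AIFM1 Ssc.19966.1.S1_at (-0.54 to 0.072) and Ssc.19966.2.S1_at (-0.98 to 0.79), BIRC5 (-0.70 to 0.73), BNIP3L Ssc.21027.2.A1_a_at (-0.76 to 0.22) and Ssc.7152.1.A1_at (-0.56 to 0.41), CASP2 Ssc.9673.1.A1_at (-0.39 to 0.25), CASP6 Ssc.23960.1.A1_at (-0.095 to 0.027) and Ssc.23960.2.S1_at (-0.58 to 0.80) and CYCS (-0.019 to 0.14). For IgG against non-injected embryos they turned in AIFM1 Ssc.19966.2.S1_at (-1.14 to 0.62), BIRC5 (-0.36 to 1.07) and CASP2 Ssc.9673.1.A1_at (-0.62 to 0.017), and for anti-DJ1 in AIFM1 Ssc.19966.2.S1_at (-0.72 to 0.011), BIRC5 (-0.15 to 0.89), BNIP3L Ssc.21027.2.A1_a_at (-0.086 to 0.89) and CYCS (-0.085 to -0.022).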
